A study of Mus musculus with 58 samples.

Results

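The 8 homeobox genes described here in single blood stem and progenitor cells were Hoxa5, Hoxa7, Hoxa9 and Hoxa10 of the Hoxa cluster, Hoxb4 and Hoxb5 of the Hoxb cluster, the Hox cofactor Meis1, and Hlx. They were chosen by name, with earlier results of these data known, and make up 8 of the 23152 gene symbols in the table. All 8 had at least 20 counts over the 58 cells, the minimum used here for a ratio. The set is usually thought of together with the Pbx cofactors, but no Pbx gene was among the 8, so the Pbx genes are described with the other partners. Hlx is a homeobox gene outside the Hox, Meis and Pbx families.

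The cells were sorted one by one from the bone marrow of wild-type C57BL/6 mice, and their RNA was counted at the 3' end. The first gate, with 34 cells, was set for haematopoietic stem cells of long-term potential (LT-HSC; Lin-, Kit+, Sca1+, Flt3-, CD34-) and the second, with 24 cells, for common progenitors of myeloid cells (CMP; Lin-, Kit+, Sca1-, CD16/32-, CD34+). No treatment was named for either gate. The labels list a passage range although the source is marrow, and they give no age and name no animal, so each gate is 1 sample. No test of a difference between gates was therefore possible, and all intervals are 95% intervals that cover counting error only.

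Homeodomain proteins bind DNA through a helix that lies in the major groove. Hox proteins gain sequence specificity by pairing with cofactors of the TALE class, chiefly Pbx and Meis proteins. In the marrow, posterior Hoxa genes and Meis1 are known for maintaining stem and early progenitor cells, are turned down as cells mature, and are kept on in several leukaemias.

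The stretch of the homeobox that encodes the DNA-reading helix is shown for 4 of the genes, because it is what the class shares and what sets Meis1 apart. It covers codons 41 to 60 of the homeobox in the GENCODE M21 transcripts of GRCm38, read 5' to 3' on the coding strand. Capitals mark codons 48 to 51, in the middle of the helix.
Hoxa5: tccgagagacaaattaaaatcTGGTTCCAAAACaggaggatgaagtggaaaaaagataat
Hoxa10: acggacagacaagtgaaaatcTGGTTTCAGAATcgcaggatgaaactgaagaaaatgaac
Meis1: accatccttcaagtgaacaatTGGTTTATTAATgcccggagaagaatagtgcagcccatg
Hlx: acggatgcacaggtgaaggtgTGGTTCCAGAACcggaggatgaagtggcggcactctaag
The stretches of Hoxa5 (chr6:52202632-52202691) and Hoxa10 (chr6:52232554-52232613) lie on the minus strand, each in exon 2 of 2. The Meis1 stretch is split between exons 9 and 10 of 13 on the minus strand (chr11:18885615-18905711 from end to end). That of Hlx is split between exons 3 and 4 of 4, also on the minus strand (chr1:184727944-184729871). Over these 60 bases, Hoxa5 and Hoxa10 were identical at 42. Hlx matched each of them at 39, and Meis1 matched Hoxa5 at 22, Hoxa10 at 31 and Hlx at 26.

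The total count of a cell had a median of 236774 in LT-HSC (range 45022 to 860553) and 290977 in CMP (range 88329 to 706184), and the pooled totals were 9931131 and 7062737. Of the listed markers, 8 of 8 for stem cells were higher in LT-HSC by 2-fold or more, and 5 of 5 myeloid progenitor markers with enough counts were higher in CMP. Of all genes with at least 20 counts, 22.7% were higher in LT-HSC and 28.1% in CMP by that fold. Of 6 erythroid markers 4 were higher in CMP and 2 in neither, and of 6 megakaryocyte markers 2 were higher in LT-HSC, 2 in CMP and 2 in neither. The lists were chosen with earlier results of these data known, so they are not an independent check of the gates. Markers of other marrow cells were partly present. Of 7 T or NK cell markers 4 had no count in any cell, among them Cd3e, while Nkg7 had 3465 counts in LT-HSC and 3014 in CMP. No count was found for 2 of 6 endothelial markers (Cdh5 and Flt4), 4 of 6 stromal markers, 2 of 7 macrophage markers and 2 of 7 B cell markers. The summed endothelial markers came to 82.9 CPM in LT-HSC and 62.0 in CMP, the B cell markers to 86.5 and 49.4, the stromal markers to 15.003 and 6.37, and the macrophage markers to 2.11 and 24.6. Their part in the results below was not tested. Summed markers of mature neutrophils had a median of 3.38 per 10000 counts in LT-HSC (range 2.19 to 6.06) and 5.30 in CMP (range 0.03 to 59.4). Xist, the transcript of the inactive X chromosome, was counted in 22 CMP and in no LT-HSC, so gate and Xist status cannot be told apart except in CMP 1 and 2. LT-HSC 1 to 16 and LT-HSC 17 to 34 stood apart in these data, a split that no label names, and values for each set stand beside the results that it moves most. Their total counts had medians of 211044 and 306454. Their summed stem cell markers had medians of 13.1 and 3.56 per 10000.

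Of the 8 genes, 6 were higher in LT-HSC by 2-fold or more by pooled counts, with Hoxa7 on the limit at 2.003-fold. A further 1 (Hlx) was higher in CMP, and Hoxa9 lay just inside 2-fold. Over all 10937 genes with at least 20 counts, 22.7% were higher in LT-HSC by 2-fold or more and 28.1% were so in CMP. The median log2 ratio was -0.13. Since the 8 were chosen with earlier results of these data known, their number beside these shares is a description only. Pooled values are CPM, the counts summed over a gate's cells and scaled to a common total. Because counts come from the 3' end of transcripts and from few cells, CPM values are compared between gates for 1 gene and not between genes. A pooled level cannot tell fewer cells with a transcript from less transcript per cell, so the number of cells with a count stands beside it.

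**Figure D1:**
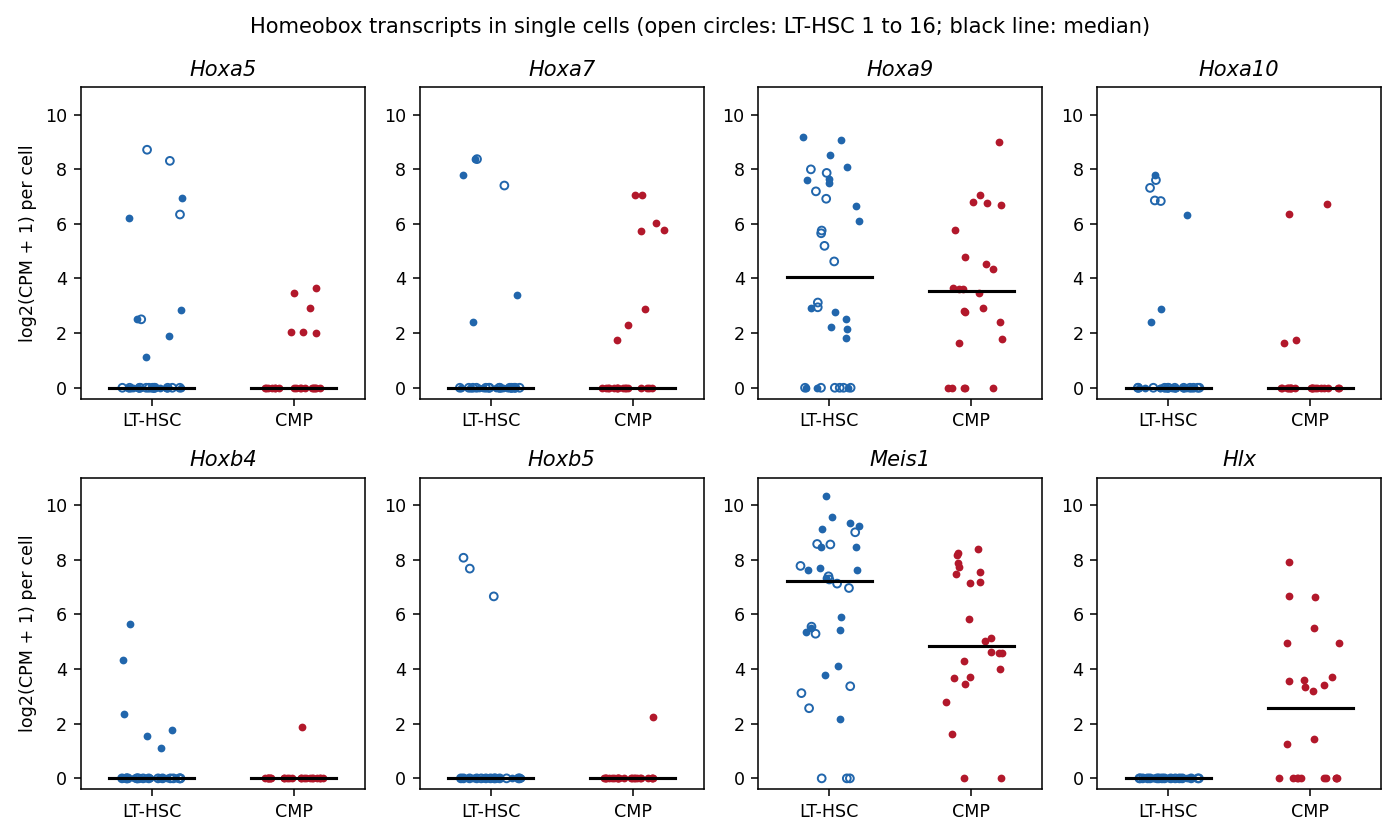
Each panel plots 1 gene, with log2(CPM + 1) of single cells on the vertical axis and the 2 gates on the horizontal axis. Points are the 34 LT-HSC (open circles for LT-HSC 1 to 16) and 24 CMP, and the black line is the median of the gate. Hoxb5 is high in 3 LT-HSC, Hlx is seen in 14 CMP and no LT-HSC, and Meis1 and Hoxa9 are spread over most cells of both gates.

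Hoxa9, which supports stem cell repopulation and is a frequent driver of leukaemia, was the most widely detected Hox gene. Counts were found in 25 of 34 LT-HSC and in 19 of 24 CMP. Across LT-HSC the lowest value was 0, the median 15.7 and the highest 577 CPM. Across CMP they were 0, 10.6 and 510 CPM. The gates overlapped almost completely, and 2 LT-HSC exceeded the highest CMP. With at least 5 counts asked for, Hoxa9 was present in 16 LT-HSC and 9 CMP. Pooled Hoxa9 in LT-HSC was 87.7 CPM (interval 82.0 to 93.7), and in CMP it was 44.9 CPM (interval 40.1 to 50.1), a log2 fold change of 0.97 (interval 0.78 to 1.16). A single cell, CMP 18, held 168 of the 317 CMP counts, or 53.0%. Without CMP 18 the LT-HSC level was 3.95-fold higher instead of 1.95-fold higher, so the size of the Hoxa9 difference rests on that cell. Against all CMP, LT-HSC 1 to 16 had a log2 ratio of 0.64 and LT-HSC 17 to 34 one of 1.11, past 2-fold.

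Hoxa10, the neighbour of Hoxa9 and a gene whose forced expression expands myeloid and megakaryocyte progenitors in mice, was seen in fewer cells. Counts were present in 8 LT-HSC and 4 CMP, of which 6 LT-HSC and 2 CMP had at least 5. The highest value was 219 CPM among LT-HSC and 104 CPM among CMP, and the median was 0 in both gates. Most cells of both gates therefore overlapped at 0, while 5 LT-HSC lay above every CMP. The pools held 365 counts (36.8 CPM) and 33 counts (4.67 CPM), a log2 fold change of 2.96 (interval 2.46 to 3.54). LT-HSC 34 alone gave 43.6% of the LT-HSC counts. Leaving it out gave 2.24. It became 3.71 without CMP 6 and 3.93 without CMP 15, which gave 51.5% of the CMP counts. The mean of each cell's CPM, which weights cells equally, gave 1.72. Of the 8 LT-HSC with Hoxa10 counts, 6 also had Hoxa9 counts, as did all 4 of the CMP.

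Hoxa5, which in human progenitors favours myeloid over erythroid output when forced on, had the largest ratio of the 4 Hoxa genes chosen. Its counts in LT-HSC came to 250, from 10 cells. LT-HSC 6 had 102 counts, LT-HSC 17 had 53, LT-HSC 14 had 41, LT-HSC 24 had 38 and LT-HSC 2 had 9, and the other 5 had 1 or 2 each. In CMP, 6 cells had a count, each of 1 or 2, for 7 counts in all. The highest CMP value was 11.7 CPM against 419 CPM among LT-HSC, and 5 LT-HSC exceeded every CMP, although the median was 0 in both gates. The pools stood at 25.2 CPM (interval 22.1 to 28.5) and 0.99 CPM (interval 0.40 to 2.04), a log2 fold change of 4.57 (interval 3.60 to 6.00). Without LT-HSC 6 the ratio was 3.85. It was 5.41 with LT-HSC 1 to 16 and 3.82 with LT-HSC 17 to 34.

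Hoxa7, a gene active in early myeloid and erythroid progenitors and raised in leukaemias with MLL fusions, was seen in 17.6% of LT-HSC (exact binomial interval 6.76 to 34.5) and in 33.3% of CMP (interval 15.6 to 55.3). It had a count in 6 LT-HSC, led by 102 in LT-HSC 24, 65 in LT-HSC 8, 41 in LT-HSC 6 and 35 in LT-HSC 28. Among CMP it had a count in 8 cells, led by 28 in CMP 15, 22 in CMP 9 and 20 in CMP 17. The cells with counts differed in level, with a highest value of 330 CPM in LT-HSC and 133 CPM in CMP, and 4 LT-HSC lay above every CMP. The pooled levels of 24.8 and 12.3 CPM gave a log2 fold change of 1.0025 (interval 0.65 to 1.38), which is 2.003-fold and sits on the 2-fold limit. Without LT-HSC 24 it fell to 0.28, so that 1 cell carries most of the Hoxa7 difference. It was 1.33 with LT-HSC 1 to 16 and 0.80, under 2-fold, with LT-HSC 17 to 34. Hoxa7 overlaps an exon of the antisense gene Hoxaas3, which had 14 counts of its own in the table.

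The Hoxb genes were nearly all on the LT-HSC side. Hoxb5, whose reporter marks repopulating stem cells in mice, had 66 counts in LT-HSC 10, 56 in LT-HSC 9 and 28 in LT-HSC 12, none in any other LT-HSC, and 1 in CMP 12. These 3 LT-HSC lay at 100.2 to 269 CPM and the single CMP at 3.80 CPM, so they stood above every other cell. All 3 belong to LT-HSC 1 to 16, and LT-HSC 17 to 34 had no Hoxb5 count. Pooled, Hoxb5 stood at 15.1 CPM against 0.14 CPM, a log2 fold change of 6.16 whose interval ran from 4.24 to 12.05 because it rests on 1 CMP count. It was 5.37 without LT-HSC 10, 5.52 without LT-HSC 9 and 5.10 without CMP 12. An exon of the antisense gene Hoxb5os overlaps Hoxb5, and strand use in counting was not given in the sources used here, so the 2 may share reads. Hoxb5os had 41 counts in LT-HSC 12 but none in LT-HSC 9 and LT-HSC 10. It had 56 in LT-HSC 8 and 5 in LT-HSC 16, which had no Hoxb5 count.

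Hoxb4, known for expanding stem cells when forced on, was sparse. LT-HSC 23 had 11 counts, LT-HSC 20 had 4, and 4 more LT-HSC had 1 to 3, while CMP 17 had 1. LT-HSC 1 to 16 had no Hoxb4 count, so Hoxb4 and Hoxb5, neighbours on chromosome 11, were never counted in the same LT-HSC. The highest values were 49.4 CPM among LT-HSC and 2.69 CPM among CMP. The pooled levels were 2.22 and 0.14 CPM, with a log2 fold change of 3.42 (interval 1.34 to 9.33). The ratio fell to 2.48 without LT-HSC 23 and to 2.30 without CMP 17. At an equal total of 97978 counts per cell, 7 Hoxb4 counts were left in LT-HSC and none in CMP, which does not reach 2-fold against a floor of 3 counts.

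Meis1, the TALE cofactor that binds with Hoxa9 and is required for the upkeep of adult stem cells in mice, was counted in 31 LT-HSC and 22 CMP. It was at 0 in LT-HSC 2, 9 and 15 and in CMP 2 and 11. LT-HSC had a median of 147 and a highest value of 1305 CPM, and CMP a median of 27.7 and a highest value of 333 CPM. The gates overlapped over the whole CMP range, and 10 of 34 LT-HSC lay above the highest CMP. Pooled Meis1 was 245 CPM (interval 235 to 255) against 85.5 CPM (interval 78.8 to 92.6), with a log2 fold change of 1.52 (interval 1.39 to 1.65). No single cell decided it, since leaving out each in turn gave 1.38 to 1.72. The level differed between the LT-HSC sets, with medians of 85.1 CPM in LT-HSC 1 to 16 and 196 CPM in LT-HSC 17 to 34. Against all CMP, the first set had a log2 fold change of 0.72, under 2-fold, and the second 1.81. LT-HSC 1 to 16, the set with less Meis1, was the set with more of the stem cell markers listed above, and the part of the split in the result was not tested. At an equal total per cell the log2 fold change was 1.08.

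**Figure D2:**
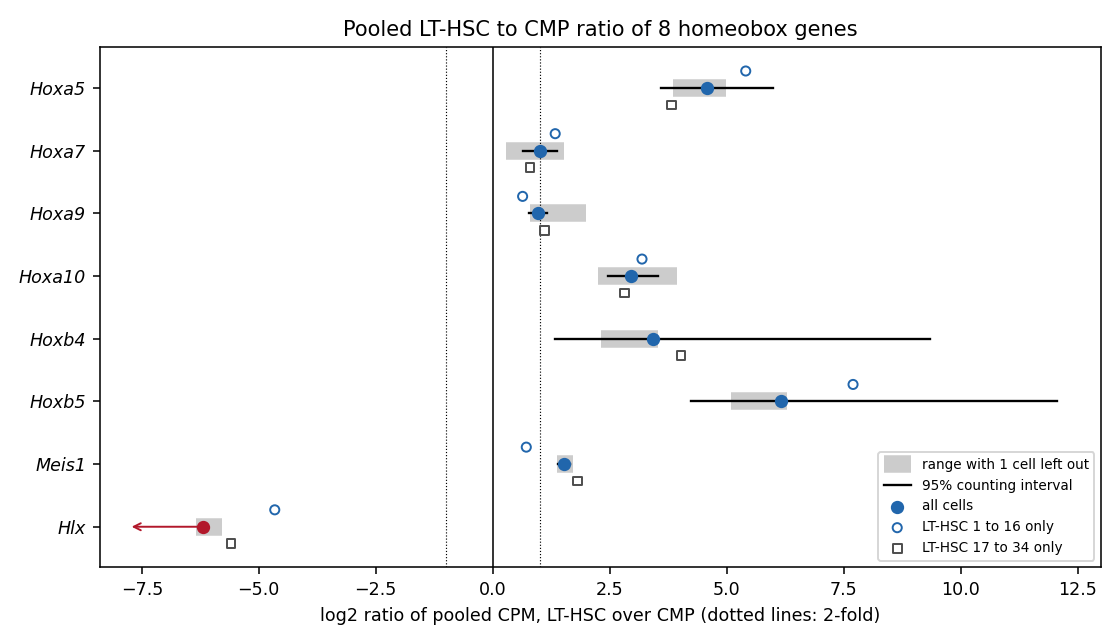
The horizontal axis is the log2 ratio of pooled CPM, LT-HSC over CMP, for the 8 genes on the vertical axis, with dotted lines at 2-fold. Filled points use all cells, black lines are 95% counting intervals, grey bars span the ratios with each cell left out in turn, and open symbols use LT-HSC 1 to 16 or 17 to 34 only. Hlx is a bound, drawn with an arrow, at -6.20. Hoxa7 and Hoxa9 sit at 1.0025 and 0.97, and the grey bar of Hoxa9 reaches 1.98.

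Hlx, a homeobox gene known in blood from myeloid progenitors and leukaemia cells, had the reverse pattern. No LT-HSC had a count, and by the limit of 3 in 34 this allows up to 8.82% of cells with a count (exact binomial limit 10.3%), which does not cover transcripts missed in a cell. Among CMP, 14 of 24 had a count, and the counts were uneven. CMP 3 had 47, CMP 20 had 41, CMP 13 had 24, CMP 4 had 14, CMP 24 had 10 and CMP 6 had 6, and 8 CMP had 1 to 4. The highest CMP value was 239 CPM and the median 4.90 CPM, and all 14 lay above every LT-HSC. The pooled level was 22.2 CPM (interval 18.9 to 25.99). Against the floor of 3 counts over the LT-HSC pool this gave a bound of 73.6-fold, which leaves out counting error. With each cell left out in turn, this bound ran from 55.3 (without CMP 3) to 81.2. With a counting interval that reached up to -5.89, the bound was -6.20 as a log2 ratio. It was weaker with smaller LT-HSC pools, at -4.66 with LT-HSC 1 to 16, -5.59 with LT-HSC 17 to 34 and -4.70 at an equal total per cell. At an equal total per cell, Hlx was counted in 10 of 22 CMP and 0 of 30 LT-HSC. CMP 1 and 2, which like the LT-HSC lack Xist, had 1 count each. With only these as CMP, both gates were at or under the floor and no ratio could be given. Over all genes with at least 20 counts, 345 had no count in LT-HSC and 348 had none in CMP.

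Summed over each cluster, the Hoxa and Hoxb genes behaved differently. The 11 Hoxa genes had 1799 counts in LT-HSC and 466 in CMP, or 181 and 66.0 CPM, a log2 fold change of 1.46 (interval 1.31 to 1.61) that became 2.03 without CMP 18. The 10 Hoxb genes had 446 counts in LT-HSC and 2 in CMP, or 44.9 and 0.28 CPM, a log2 fold change of 6.99 (interval 5.45 to 10.36). With each cell left out in turn the Hoxb ratio ran from 6.72 to 7.67, the latter without CMP 12, which held 1 of the 2 CMP counts. A Hoxa count was present in 28 LT-HSC and 23 CMP, and a Hoxb count in 19 LT-HSC and 2 CMP. With at least 5 counts of the cluster, the numbers were 21 and 12 for Hoxa and 9 and 0 for Hoxb. By the limit of 3 in 24, the absence of such a CMP allows up to 12.5% of cells with 5 Hoxb counts.

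The LT-HSC sets differed in their Hoxb counts. LT-HSC 1 to 16 held 392 of the 446 Hoxb counts (115 CPM) and LT-HSC 17 to 34 held 54 (8.28 CPM). The same sets had 189 and 177 CPM of summed Hoxa counts, though its members went opposite ways, with 44.9 and 14.9 CPM of Hoxa5 and 69.8 and 97.1 CPM of Hoxa9. Of the 9 LT-HSC with at least 5 counts of Hoxb, 7 were in the first set. Hoxb counts were higher in both sets than in CMP, with log2 fold changes of 8.35 and 4.56. Whether the split follows animals, plates or sorts is not given by any label.

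Different Hoxb genes made up the counts in different cells. LT-HSC 4 had 36 counts of Hoxb2 and 51 of Hoxb7. LT-HSC 13 had 20 of Hoxb2 and 46 of Hoxb6, and LT-HSC 20 had 23 of Hoxb3 and 5 of Hoxb2. LT-HSC 16 had 61 of Hoxb8, the only cell with that gene. At 5 counts or more, 3 LT-HSC had 2 Hoxb genes and none had 3. In the Hoxa cluster the same measure gave 8 LT-HSC and 4 CMP with 2 or more genes, and 3 LT-HSC and 1 CMP with 3. All 67 counts of Hoxa6 were in LT-HSC 22. The 9 Hoxc and 9 Hoxd genes of the table had no count in any cell. This is not read as absence, since 10265 of the 23152 symbols had none, among them the glycolysis gene Eno1 that every cell uses.

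**Figure D3:**
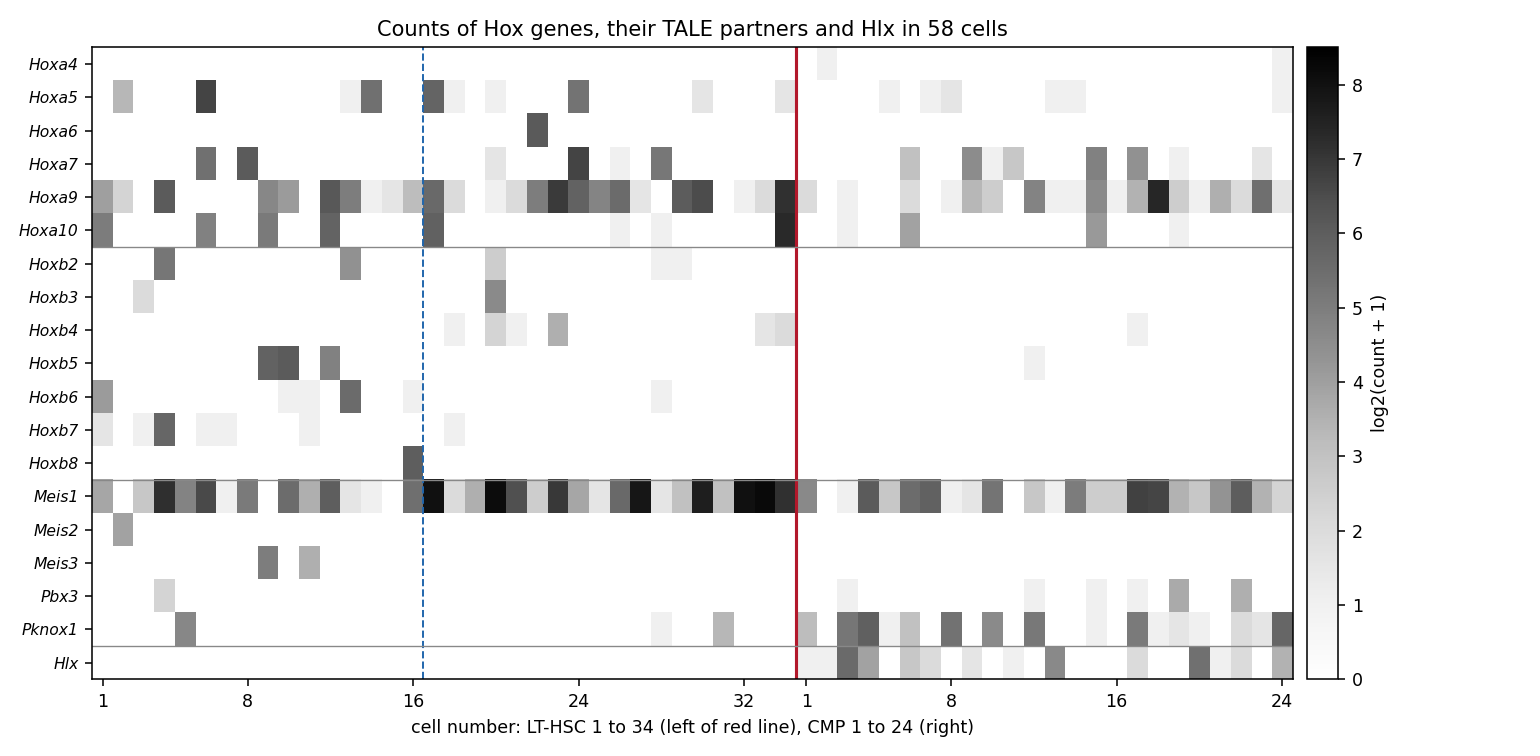
Rows are Hox genes, TALE cofactors and Hlx, and columns are the 58 cells in the order of their deposited numbers, with the LT-HSC left of the red line and a dashed line after LT-HSC 16. Shade is log2(count + 1). Hoxb rows are filled in 19 LT-HSC and 2 CMP, while Hoxa9 and Meis1 run across both gates.

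At 1 count or more, 25 of 34 LT-HSC and 14 of 24 CMP had at least 2 Hox genes. At an equal total per cell 18 of 30 and 9 of 22 did, and with 5 counts asked of each gene 14 and 4 did. Over all Hox genes, a cell of either gate had a median of 2 Hox genes with a count, from 0 to 6 in LT-HSC and from 0 to 3 in CMP. The medians were 2 and 1 at an equal total per cell, and 1 and 0.5 with 5 counts asked. There were 15 of 34 LT-HSC and 5 of 24 CMP with 3 or more. At an equal total per cell these were 12 of 30 and 2 of 22, and with 5 counts asked of each gene they were 8 and 1. Hoxa9 and Meis1 were counted together in 22 LT-HSC and 19 CMP, that is, in every CMP with Hoxa9. With 5 counts asked of each they were together in 13 LT-HSC and 8 CMP. A Hoxa and a Hoxb gene were together in 16 LT-HSC and 2 CMP, and with 5 counts asked of each cluster in 8 and 0. Cells with Hoxb5 also differed among themselves, as LT-HSC 9 had no Meis1 count, LT-HSC 10 had 45 and LT-HSC 12 had 61.

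The TALE partners of Hox proteins were looked at beside Meis1. Of 10 listed, 8 had at least 20 counts. Of these, 4 were higher in CMP by 2-fold or more and 1 was so in LT-HSC (median log2 ratio -1.24). Over all genes 28.1% and 22.7% were so. With at least 100 counts asked for, 2 were higher in CMP and 0 in LT-HSC. On so few genes this is not a result about the group. Pbx2 had 55 counts in LT-HSC and 25 in CMP, and its ratio changed sign without LT-HSC 22. Pbx3 had 4 and 27 counts, with a log2 fold change of -3.10 that became -2.37 without CMP 19 and -2.42 without CMP 22. Pbx4 had 82 and 180, with a log2 fold change of -1.62 that became -3.46 without LT-HSC 23 and -1.03 without CMP 1. With LT-HSC 1 to 16 only, the ratio of Pbx3 was -1.56 and that of Pbx4 was -3.05.

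Pknox1, which encodes the Meis-related cofactor Prep1, leaned to CMP in many cells. Its 300 CMP counts came from 16 cells and its 35 LT-HSC counts from 3, and of the latter LT-HSC 5 held 71.4%. Its log2 ratio was -3.57, and -5.32 without LT-HSC 5. Meis2 had 14 counts, all in LT-HSC 2, one of the 3 LT-HSC without Meis1. Meis3 had 31 counts in LT-HSC 9, another of those 3, and 11 in LT-HSC 11, with none in CMP. LT-HSC 11 also had 11 Meis1 counts, and LT-HSC 15, also without Meis1, had no Meis2 or Meis3 count. The log2 bound of Meis3 was 3.32, and 1.41 without LT-HSC 9. Tgif1, a TALE repressor, had a log2 fold change of -0.86 that became -1.96 without LT-HSC 26 and turned to 2.59 with only CMP 1 and 2 as CMP. With LT-HSC 1 to 16 only, Pknox1 stood at -2.51 and Tgif1 at -1.95, and with LT-HSC 17 to 34 only they stood at -4.72 and -0.50.

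Of 33 other Hox genes, 7 had at least 20 counts, of which 6 were on the LT-HSC side and 1 on the CMP side, with a median log2 ratio of 3.85. All 7 had no count in one of the gates, so these ratios are bounds. The bounds of Hoxb2, Hoxb6, Hoxb8 and Hoxa6 were 14.9-fold, 15.6-fold, 14.5-fold and 15.9-fold higher in LT-HSC, leaving out counting error. The lower ends of their log2 counting intervals were 3.56, 3.63, 3.51 and 3.65. The counts of these genes came from 5 cells for Hoxb2, 6 for Hoxb6 and 1 each for Hoxb8 and Hoxa6. Without LT-HSC 4 the bound of Hoxb2 was 6.59, and without LT-HSC 13 that of Hoxb6 was 4.85. Hoxb6 and Hoxb8 had no ratio with LT-HSC 17 to 34, Hoxa6 had none with LT-HSC 1 to 16, and the log2 bound of Hoxb2 was 5.27 with the first set and 1.34 with the second.

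Other homeobox genes were looked at as well. Of 51 listed, 50 were in the table and 17 had at least 20 counts. Of these, 5 were higher in LT-HSC by 2-fold or more, 4 in CMP and 8 in neither, with a median of 0.35. The counts lie near the shares of 22.7% and 28.1% over all genes and are not a result about the class. Nkx2-3, a homeobox gene known from the vessels of gut and spleen, had 283 LT-HSC counts from 10 cells and 18 CMP counts from 10 cells. Its log2 ratio was 3.45 and stayed between 2.89 and 3.65 with any cell left out. Zeb2, a repressor with zinc fingers and a homeodomain that acts in myeloid differentiation, stood at 10.8 CPM in LT-HSC and 135.5 CPM in CMP, with a log2 fold change of -3.65 (-4.32 without LT-HSC 1). Satb1, a chromatin organiser, had a log2 fold change of -2.88, which became -3.61 without LT-HSC 20 and -4.03 without LT-HSC 24. The LT-HSC sets, in the same order, gave -2.91 and -4.25 for Zeb2 and a bound of -5.78 and a ratio of -2.27 for Satb1.

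Regulators that keep Hox genes on or off were looked at next. Of 17 genes of the MLL and Dot1l group, which deposit active marks at Hox genes, 4 were higher in LT-HSC by 2-fold or more, 6 in CMP and 7 in neither (median -0.33). These counts lie near the shares of 22.7% and 28.1% over all genes and are not a result about the group. Mllt3, which recruits Dot1l, was at 113 CPM in LT-HSC and 21.1 CPM in CMP, a log2 fold change of 2.41 that became 3.07 without CMP 1. In LT-HSC 17 to 34 its ratio turned to -0.80. Mllt10, a direct partner of Dot1l, had a log2 fold change of -2.46 (-3.11 without LT-HSC 9), which turned to 1.24 with only CMP 1 and 2 as CMP. Aff1 and Mllt1, parts of the elongation complexes that fuse with MLL in leukaemia, had log2 fold changes of -2.17 and -1.99. They became -4.64 without LT-HSC 8 for Aff1 and -2.59 without LT-HSC 22 for Mllt1. Aff1 stood at -0.66, under 2-fold, with LT-HSC 1 to 16 and at -6.72 with LT-HSC 17 to 34.

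Among 24 Polycomb genes with enough counts of 25 listed, 3 were higher in LT-HSC by 2-fold or more, 10 in CMP and 11 in neither (median -0.63), beside 22.7% and 28.1% of all genes. With the CPM of each cell averaged, 3 were higher in LT-HSC and 7 in CMP. The number in CMP thus depends on the weighting of cells and is not a result about the group. Ezh2, the H3K27 methyltransferase of dividing cells, was counted in 22 of 34 LT-HSC and in all 24 CMP, at 50.2 and 174 CPM, with a log2 fold change of -1.79. Beside 28.1% of all genes, 7 of 10 listed cycling genes were also higher in CMP by 2-fold or more. Their summed level had a median of 0.54 per 10000 counts in LT-HSC (range 0 to 36.9) and 10.4 in CMP (range 1.36 to 40.5), and their part in the Ezh2 difference was not tested. Bmi1, a Polycomb protein needed for stem cell renewal, was counted in 19 CMP and in 2 LT-HSC, and 96.0% of its 25 LT-HSC counts were in LT-HSC 2. Its log2 ratio was -3.31, and -7.38 without that cell. The chromodomain gene Cbx7 was higher in LT-HSC, with a log2 value of 2.09 that became 1.35 without LT-HSC 34. By LT-HSC set, in order, the ratios were -0.998 (just under 2-fold) and -2.48 for Ezh2, -1.77 and a bound of -5.78 for Bmi1, and 1.15 and 2.41 for Cbx7.

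Genes reported as targets of Hoxa9 and Meis1 in blood cells, were taken from general knowledge. Of 21 with enough counts, 3 were higher in LT-HSC by 2-fold or more, 8 in CMP and 10 in neither, with a median of -0.37. Over all genes 22.7% and 28.1% were so, with a median of -0.13. Bcl2, an inhibitor of cell death, had 3 counts in LT-HSC and 605 in 17 CMP, at 85.7 CPM, with a log2 fold change of -7.93. It was -9.07 without LT-HSC 21. Sox4, a transcription factor of progenitors and leukaemia, had 16 counts in LT-HSC, most of them in LT-HSC 32, and 379 in 10 CMP. Its log2 ratio of -5.02 became -7.68 without LT-HSC 32 and -4.26 without CMP 20. Trib2 and Gp1bb rested on single cells, since CMP 1 held 90.6% of the CMP counts of Trib2, and CMP 7 held 66.2% of those of Gp1bb. Without these cells their log2 fold changes of -4.99 and -4.92 became -1.77 and -3.43. Without LT-HSC 10 that of Gp1bb was -8.50. By LT-HSC set, in order, the ratios were -3.44 and a bound of -5.88 for Trib2 and -3.46 and -7.94 for Gp1bb. LT-HSC 1 to 16 had no count of Bcl2 or Sox4, which gives bounds of -6.61 and -5.93.

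**Figure D4:**
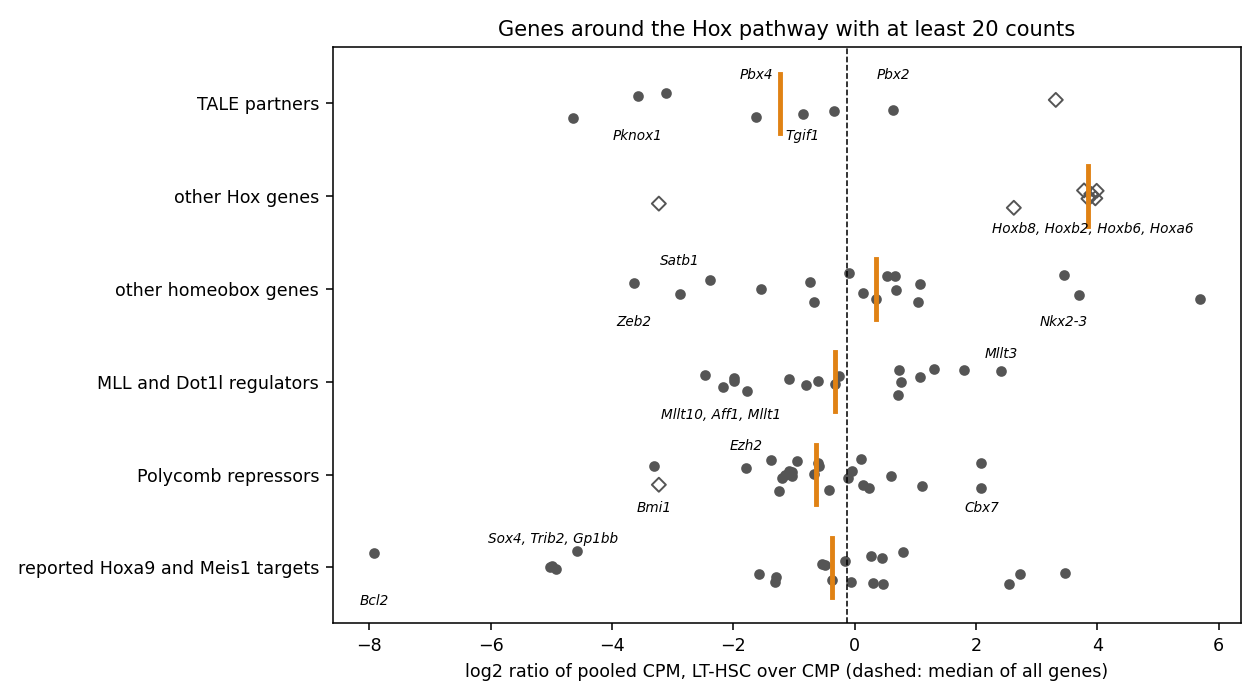
Points are genes with at least 20 counts over both gates, placed on the horizontal axis by the log2 ratio of pooled CPM, LT-HSC over CMP, with 1 list per line. Open diamonds are bounds for genes with no count in one gate, orange bars are list medians and the dashed line is the median of all genes at -0.13. The other Hox genes have a median of 3.85, and the TALE partners one of -1.24.

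For the 6 of the 8 genes with at least 50 counts and a count in at least 10 cells, the genes with the most similar pattern over the 58 cells were looked up by Pearson correlation of log2(counts per 10000 + 1). All points share 1 count table and differ in depth, and each gene's correlation with log2 of the cell's total lay within 0.15 of 0 for the homeobox genes. Meis1 was most like Pfdn1, a prefoldin subunit, with r = 0.57 over 58 cells, 0.53 within LT-HSC and 0.65 within CMP. The next were D6Wsu163e at 0.49 and Abcg2, a transporter of stem cells, at 0.47, although Abcg2 had an r of -0.0042 within CMP. Among the genes most like Hoxa9 were AW112010 and Aldh6a1, both at 0.54, with values of 0.07 and 0.78 within CMP. Hoxa5 was most like Nmrk1 and Zcchc4, both at 0.77, and Serpinb9 at 0.71, with r from -0.11 to -0.02 for these within CMP, where Hoxa5 had 7 counts. Hoxa7 was most like Ttc28 at 0.66, Spast at 0.58 and Pla2g12a at 0.54, and the first of these had an r of -0.16 within CMP. Hoxa10 was most like Osbpl3 and Sptbn1, both at 0.56, and Ccdc59 at 0.54, which had an r of 0.59 within CMP. At 5 counts or more, Hoxa5, Hoxa7 and Hoxa10 were in only 5, 4 and 6 LT-HSC and in 0, 5 and 2 CMP. A few shared cells can therefore set their correlations, and leaving out cells was not tried for them.

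Hlx was most like Mcpt8, a protease of basophils, with r = 0.83 over the 24 CMP. It was followed by Cebpa, a factor of myeloid commitment, at 0.77 and the Fc receptor gene Fcgr3 at 0.68. These values rested on CMP 13 and CMP 20, which had the most Mcpt8 counts. Over the other 22 CMP they were 0.16, 0.23 and -0.12. CMP 3, with the most Hlx counts, was not among the cells with most Mcpt8. Of the whole list of mast cell, basophil and eosinophil markers, 6 of 6 with enough counts were higher in CMP by 2-fold or more. Over all genes 28.1% were so. The list's summed level ran from 0.05 to 37.8 per 10000 counts in CMP. In LT-HSC it ran from 0 to 3.60, and 5 of its 7 genes had no count there. Of this list, Prss34 had an r of 0.69 with Hlx over the 24 CMP and Cpa3 one of -0.14. Over the 22 CMP without CMP 13 and CMP 20 these were -0.20 and -0.22. CMP 15, with 783 Cpa3 counts, had no Hlx count. The part of mast cells, basophils and eosinophils in the Hlx difference was not tested. At 5 counts or more, none of the 6 CMP with Hlx was among the 9 with Hoxa9, and 3 of the 6 were among the 17 with Meis1. At 1 count or more, Hlx was together with Hoxa9 in 10 CMP and with Meis1 in 12.

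**Figure D5:**
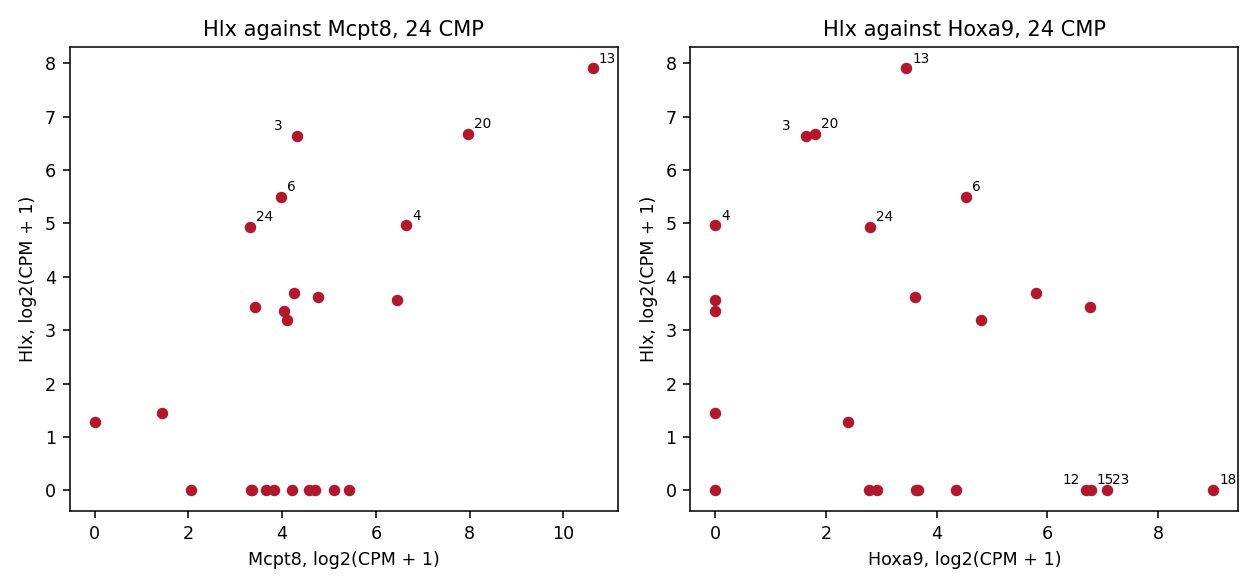
Points are the 24 CMP, with log2(CPM + 1) of Hlx on the vertical axis and that of Mcpt8 (left) or Hoxa9 (right) on the horizontal axis. Numbers name the cells with at least 5 Hlx counts or with at least 20 counts of the other gene. CMP 13 and CMP 20 lie at the upper right for Mcpt8, while CMP 18, the cell with most Hoxa9, has no Hlx.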

How the data were processed

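Libraries of 58 singly sorted cells were made by a modification of Smart-seq2 with a cell barcode and a molecular identifier in the primer, and the 3' ends were captured, per the labels' protocols. The authors deposited a single table of counts, all whole numbers, whose rows are gene symbols and whose columns are cells. The submitters' processing notes name mm10, TopHat2 2.0.12, HTSeq and Seurat 2.0. Whether the counts are molecules or reads, and whether strand was used, is not given in the sources used here, so amplification may make the true error larger than the intervals.

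All 58 columns were used, and no cell was removed. Since cells were sorted singly, doublets were not called. Counts were summed per gate and scaled to CPM with exact Poisson intervals. Log2 ratios had 0.5 added to each count and exact conditional binomial intervals. Where a gate held no count, 3 counts over its pool stood in as a floor (0.30 CPM for LT-HSC, 0.42 for CMP). This gives a lower bound that leaves out counting error in the other gate. No ratio was given where such a bound fell under 1-fold or both gates were at or under the floor. Shares of cells have Clopper-Pearson intervals, and a share of 0 cells also has the limit of 3 in the number of cells. A gene was called at 2-fold with at least 20 counts. There are no replicates, so no p-value was computed. For equal totals, cells were thinned without replacement to 97978 counts, the 10th percentile, which left 30 LT-HSC and 22 CMP.

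The 8 genes, the 6 gene lists and the marker lists were chosen with earlier results of these data known. Of each list, the 4 genes with at least 50 counts and the largest absolute log2 ratios are named, and all Pbx, Meis and Pknox genes with a count. The cells, other Hox genes and markers named beside them were picked after their values were seen. Similar genes are the 3 with the highest correlation among genes counted in at least 15 cells. Homeobox sequences and coordinates are from GENCODE M21 on GRCm38, the build of mm10, found by their codons and 1-based. Some list members, similar genes and sequences are not reported here. The ratio step was tested on simulated pools with Poisson counting error only, which leaves out the spread between cells seen here. Scripts used Python 3.11.15, numpy 2.4.6, pandas 2.3.3, scipy 1.17.1 and matplotlib 3.10.9. Alternatives were a total that leaves out ribosomal protein genes, scaling by the median of ratios, averaging CPM over cells, no shallow cells (under 1 part in 3 of the gate's median total), thinning, 1 added to each count, the LT-HSC sets, CMP without or only CMP 1 and 2, other minimum counts, and each cell left out. Settings for the cluster sums, and those for the genes most like Hlx, were added after seeing the data.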

Additional observations from a re-analysis of the deposited data

How the results depend on the processing

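Of 76 log2 ratios of the 8 genes under the alternatives other than leaving out 1 cell, none changed direction, 56 stayed within the main counting interval and 20 moved outside it. The number of the 8 genes on the LT-HSC side by 2-fold or more was 6 and ranged from 4, with LT-HSC 1 to 16 only, to 7, with median-of-ratios scaling, which raises all ratios by 0.15. It was 5 to 7 with any 1 cell left out. The number higher in CMP was 1, and 0 with only CMP 1 and 2 as CMP, since Hlx then has no ratio by construction. With those 2 cells the Hoxa9 ratio was 5.01 and that of Meis1 3.69, and without them 0.69 and 1.29. No value could be given for Hoxb4 with LT-HSC 1 to 16 or with only CMP 1 and 2, nor for Hoxb5 with LT-HSC 17 to 34. Asking for 5 counts moved 10 of 16 shares of cells outside their intervals, and equal totals moved 1 of 16. No paired analysis was possible because cell numbers only name cells and no test was made. Depth limits Hoxb4 most, at 22 and 1 counts, and folds resting on 1 to 3 counts cannot be sized. Each gate is 1 sample, and Xist follows gate in all but 2 cells, so the gate cannot be told apart from the donors.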
